A study of Homo sapiens with 4 samples.

Results

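The sites described here are nuclear copies of mitochondrial DNA in the fPAR-CLIP lists of GTPBP8: sites outside the mitochondrial genome whose listed gene is a humanin-like gene (MTRNR2L with a number) or a pseudogene of a mitochondrial protein-coding or ribosomal RNA gene (such as MTCO1P12). The rule used gene names only, and it found 34 of 2341 sites, in 19 of 1227 genes. Of these genes, 5 were humanin-like (MTRNR2L1, MTRNR2L3, MTRNR2L10, MTRNR2L11 and MTRNR2L12, of 13 in the family) and 14 were mtDNA pseudogenes. All 34 sites lay inside the RefSeq span of the gene they were named for (GRCh38.p14, the build the lists use as hg38). fPAR-CLIP crosslinks 4-thiouridine (4SU)-labelled RNA to a tagged protein and reads the crosslinked bases as T-to-C conversions in the cDNA. The cells were HEK293, a human embryonic kidney line, of a genotype labelled WT dox inducible. Under doxycycline they made GTPBP8::FLAG, in 3 biological replicates, or, in 1 library, V5-tagged AUH, a mitochondrial enzyme that also binds RNA. All 4 libraries came from cells overexpressing the tagged protein after 48 h of doxycycline at 50 ng/ml, labelled for 16 h with 100 µM 4SU and irradiated for 5 min at 312 nm. No library without a tagged protein was analysed here. The lists held 402701, 627603 and 403172 reads at sites in GTPBP8 replicates 1 to 3 and 9684 reads in the AUH library, and they hold called sites only, so a gene without a site has no value and not a value of 0.

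Segments of mitochondrial DNA have entered nuclear chromosomes repeatedly during evolution, and most of them are pseudogenes. Humanin is a short peptide read from an open reading frame inside the large mt-rRNA gene (RNR2), and the humanin-like genes are nuclear loci derived from that rRNA. Because their letters resemble mtDNA, short reads from a mitochondrial transcript and from a nuclear copy can be hard to tell apart, which is why the sequences are shown first.

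Each site's sequence was compared, without gaps, with the 5699 nt of mtDNA that the listed mitochondrial sites cover (565 of the 1559 nt of RNR2). Of the 34 sites, 9 matched with at most 20% mismatches, in 5 genes, and none matched exactly. The other 25 sites had mismatches at 30.4% or more of their bases against the best stretch, so no counterpart was found for them. Uncovered bases counted as mismatches and no gaps were allowed. A counterpart that was partly covered, diverged, or had an inserted or lost base could thus be missed. Below, each copy stands above its mtDNA counterpart as RNA-sense sequence 5′ to 3′, with capitals at the differing bases. These pairs are shown because they set how many mismatches part a nuclear copy from the mitochondrial transcript.
MTRNR2L10, chrX:55181567-55181595, minus strand: ttcgtttgttcaacAattaaagtcctacg
mtDNA 3033 to 3061, in RNR2: ttcgtttgttcaacGattaaagtcctacg
MTRNR2L1, 30 nt of the third site, chr17:22524460-22524489, plus strand: ggttcgtttgttcaacgattaGagtcctaT
mtDNA 3031 to 3060, in RNR2: ggttcgtttgttcaacgattaAagtcctaC
MTCO1P12, chr1:631799-631821, plus strand: agtttatattctCatcctaccag
mtDNA 6629 to 6651, in COX1: agtttatattctTatcctaccag
MTND4LP30, chr5:134928296-134928322, minus strand: cTctcatttacataaatattatactag
mtDNA 10474 to 10500, in ND4L: cCctcatttacataaatattatactag
MTND5P11, chr5:134926358-134926389, minus strand: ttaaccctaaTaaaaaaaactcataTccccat
mtDNA 12407 to 12438, in ND5: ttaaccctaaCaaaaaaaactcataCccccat

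Counting from 1 at the 5′ end of the listed site, with the mtDNA base first, the difference was G15A at MTRNR2L10, T13C at MTCO1P12, C2T at MTND4LP30 and C11T with C26T at MTND5P11. The third MTRNR2L1 site, of 78 nt, carried 3 differences, G27A, A69G and C77T. The T13C difference at MTCO1P12 has the form of a 4SU conversion: mtDNA with that T read as C had 0 mismatches to the nuclear site. The MTRNR2L10 site and the end of the third MTRNR2L1 site matched nearly the same stretch of RNR2 from chromosomes X and 17.

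Some humanin-like sites without a match in the covered mtDNA resembled each other. The first 21 nt of the MTRNR2L3 site on chromosome 20 and the second MTRNR2L10 site on chromosome X differed by 1 base, in capitals.
MTRNR2L3, chr20:57358853-57358873, minus strand: cattaaaaAttttggttgggg
MTRNR2L10 second site, chrX:55181808-55181828, minus strand: cattaaaaTttttggttgggg
The remaining sites found in every GTPBP8 library were the first MTRNR2L1 site and the MTND5P12 site, shown with each T (U in the RNA, where 4SU can stand) in capitals.
MTRNR2L1 first site, first 30 nt, chr17:22523504-22523533, plus strand: ccTTTgTaaaTTTaacTgTTagTcTaaaga
MTND5P12, chr5:94568405-94568427, plus strand: aaTaaTTcTccTcacccTaacag

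Among the humanin-like genes, MTRNR2L1, MTRNR2L10 and MTRNR2L3 had a site in every GTPBP8 replicate. MTRNR2L1 had 543, 307 and 138 reads in replicates 1, 2 and 3, or 1348, 489 and 342 reads per 1000000 site reads of the library (CPM). The high value of replicate 1 came from 3 sites with 184, 211 and 148 reads, whereas replicates 2 and 3 listed the first of them alone. At that first site the reads were 184, 307 and 138 (429 ± 77.2 CPM, SD, n = 3), so the spread of the gene's total (727 ± 543 CPM) exceeded the spread of its recurrent site. MTRNR2L10 had 258, 248 and 281 reads (578 ± 160 CPM). Its main site held 252, 248 and 281 of them, and the second site, seen in replicate 1 alone, held 6. MTRNR2L3 had 49, 67 and 33 reads (103 ± 20.1 CPM). MTRNR2L11 was listed in replicates 1 and 3 with 321 and 313 reads and not in replicate 2, and MTRNR2L12 in replicate 2 alone with 38 reads. The other 8 family members, MTRNR2L9 among them, had no named site in any of the 4 lists.

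Of the mtDNA pseudogenes, MTCO1P12 and MTND5P12 had a site in every GTPBP8 replicate. MTCO1P12, a copy of the gene for the catalytic subunit of cytochrome c oxidase, had 151, 133 and 109 reads (286 ± 82.6 CPM). All but 12 of them, in replicate 3, fell at the site printed above, which began 2 nt later in replicates 2 and 3. MTND5P12, a copy of the gene for the complex I subunit ND5, had 73, 64 and 88 reads (167 ± 59.4 CPM). MTND4P12, a copy of the complex I gene ND4, had 516 reads at 1 site in replicate 2, and MTATP6P1, a copy of the ATP synthase gene ATP6, had 290 reads at 1 site in replicate 3. These were the sites of the pseudogenes with the most reads, and neither was listed in the other replicates. The remaining 10 pseudogenes had 5 to 17 reads in 1 library each. They were MTCO3P15, MTCO3P9, MTCYBP18, MTND1P20, MTND4P1 and MTND4P35 in replicate 1, MTND4P24 and MTND5P11 in replicate 2, and MTCO1P31 and MTND4LP30 in replicate 3. Their parents are COX3, CYTB, ND1, ND4, ND5, COX1 and ND4L, which encode subunits of complexes I, III and IV.

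**Figure D1:**
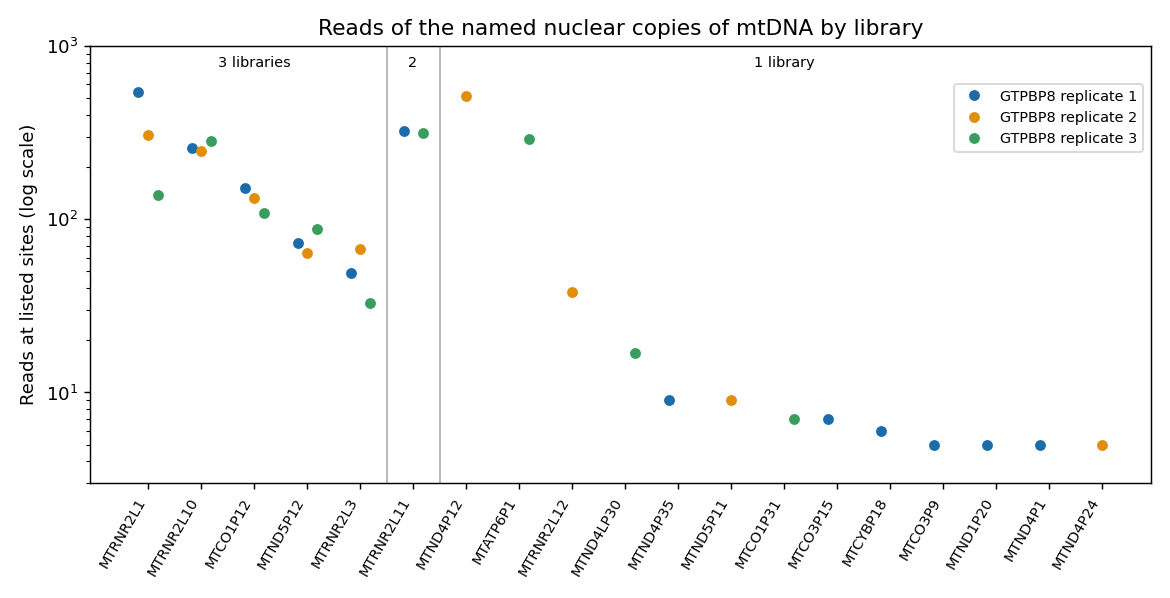
Reads at listed sites (log axis) for the 19 named nuclear copies, 1 point per GTPBP8 replicate that listed the gene; a missing point is a gene without a called site. The 5 genes at the left were listed in 3 libraries, MTRNR2L11 in 2, and 13 genes in 1, with MTND4P12 (516 reads) and MTATP6P1 (290 reads) as high as the recurrent genes.

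Per nucleotide of listed site, the 5 recurrent genes ranked MTRNR2L10 (16.8 ± 6.26 CPM per nt), MTRNR2L1 (11.7 ± 3.23), MTCO1P12 (10.6 ± 5.41), MTND5P12 (6.61 ± 1.90) and MTRNR2L3 (3.12 ± 0.519; SD, n = 3 each). The ranges of the 3 libraries overlapped between each neighbour in this order except the last: the lowest MTND5P12 value (4.43) lay above the highest MTRNR2L3 value (3.58). All sites of a gene were pooled, so a weak second site lowers a value by its length. MTCO1P12 had 5.52 in replicate 3, where a second site of 28 nt held 12 reads. In replicates 1 and 2, with the main site alone, it had 16.3 and 10.1, above the highest MTND5P12 value (7.88). By the same measure RNR2 had 3079 ± 611, COX1 24.3 ± 9.21 and ND5 26.2 ± 11.1 CPM per nt, so the pseudogene MTCO1P12 and its parent COX1 differed far less than the humanin-like genes and RNR2. By the root mean square difference in log2 CPM over the 3 libraries, not per length, LIPE-AS1 (1.17) and RNA5SP278 (1.22) were the closest to MTRNR2L1 in level after 1 gene not reported here, of 45 other nuclear genes with a site in every replicate.

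Together the named copies held 1432, 1387 and 1276 reads in replicates 1 to 3, nearly the same number in libraries of different depth. As a share of nuclear site reads this was 5.37% (95% Wilson interval 5.10 to 5.64), 4.25% (4.03 to 4.47) and 4.10% (3.89 to 4.33), a mean of 4.57% ± 0.693 (SD, n = 3). On the scale of all site reads it was 3556, 2210 and 3165 CPM (2977 ± 692). Humanin-like genes held 1171, 660 and 765 of these reads and the pseudogenes 261, 727 and 511. The pseudogene totals of replicates 2 and 3 contain the 516 reads of MTND4P12 and the 290 reads of MTATP6P1. Intervals cover counting error only, since reads from PCR are not independent molecules.

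A named copy site of one GTPBP8 replicate overlapped, on the same strand, a site of another replicate in 49.1% ± 10.3 of cases (SD over the 6 ordered pairs of replicates). The share was 22.0% ± 5.33 for the other nuclear sites and 59.1% ± 7.37 for the mitochondrial sites. The pairs share libraries, so no test was made. Copy sites also had more reads than other nuclear sites, with a median of 70 against 8, and this was not matched in the comparison. With sites of at least 10 reads the overlap was 67.1% ± 7.13 for the copies and 35.9% for the other nuclear sites. Chained by overlap, the 34 sites formed 23 loci, of which 5 (21.7%) were in all 3 replicates, against 58 of 1226 loci (4.73%) among the other nuclear sites. These 5 loci were the main sites of MTRNR2L1, MTRNR2L10, MTRNR2L3, MTCO1P12 and MTND5P12, and they held 49.5%, 59.0% and 49.9% of the copies' reads in replicates 1 to 3. The MTRNR2L10 site spanned the same 29 nt in every replicate and the MTRNR2L1 site the same 32 nt, while the MTND5P12 site started 941 nt into its gene in replicate 3 and 947 nt in the other replicates.

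**Figure D2:**
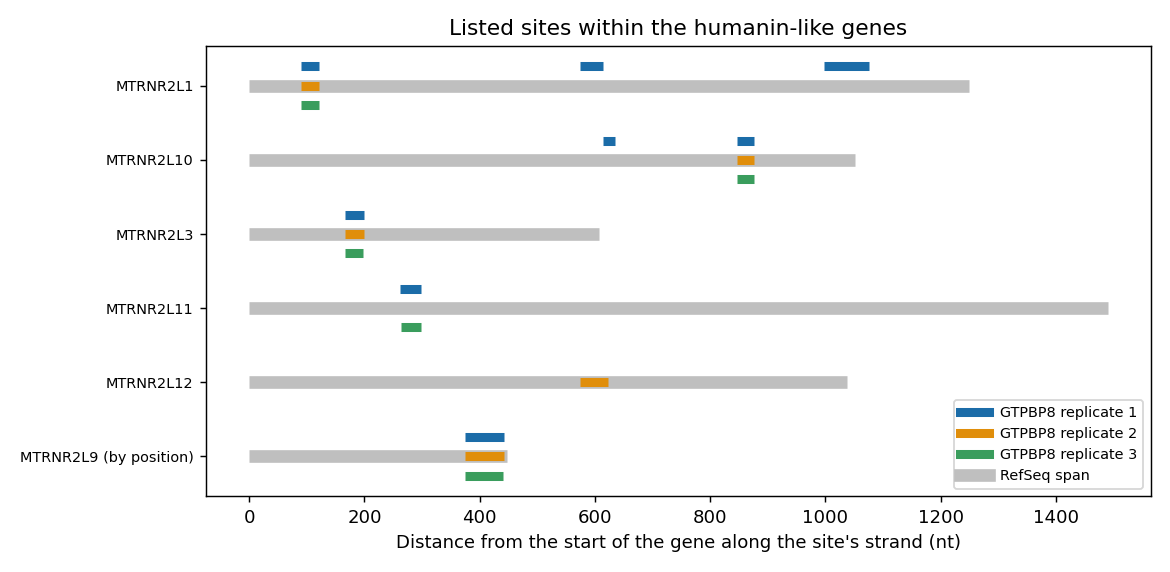
Listed sites (coloured bars, 1 colour per GTPBP8 replicate) along the RefSeq span of 6 humanin-like genes (grey), as distance from the gene start in nt. The recurrent sites started 89 nt into MTRNR2L1, 847 nt into MTRNR2L10 and 166 nt into MTRNR2L3; the MTRNR2L9 sites carried no gene name in the lists.

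The recurrent humanin-like sites started at different distances from the start of their RefSeq spans. These spans differ in length, so the distances are not shared positions on RNR2. The stretch that MTRNR2L3 shares with the second MTRNR2L10 site starts 166 nt into the first gene and 614 nt into the other. The recurrent sites started 89 nt from the gene start in MTRNR2L1, 847 nt in MTRNR2L10 and 166 nt in MTRNR2L3, and the MTRNR2L11 sites started at 261 and 263 nt. Counted back from the stretch that matched RNR2 and assuming no inserted or lost base, the first and second MTRNR2L1 sites would lie opposite mtDNA 2075 to 2106 and 2561 to 2599, and the second MTRNR2L10 site opposite 2800 to 2820. The GTPBP8 lists held RNR2 sites at 1669 to 1871 and 2944 to 3106 and none in between. Under that assumption these copy sites had no listed mitochondrial site opposite them. The MTRNR2L10 main site and the third MTRNR2L1 site matched a listed RNR2 site, which held 99894, 93449 and 85939 reads in replicates 1 to 3. The MTRNR2L11 and MTRNR2L12 sites had no match and were not placed on RNR2. The MTRNR2L3 site had no match either, but its first 21 nt differed by 1 base from the second MTRNR2L10 site placed above.

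Of the 34 sites, the lists annotated 15 as UTR (7 as 5′ and 8 as 3′), which were the humanin-like ones, and 19 as processed or unprocessed pseudogene. RefSeq, however, gives all 13 humanin-like genes of the family as pseudogenes, so the UTR label is that of the lists. Site length ranged from 21 to 78 nt with a median of 29. RNase T1, which cuts after G, was used in the protocol, and 27 of 34 member sites (79.4%) ended in G, against 55.2% of the other nuclear sites and 63.9% of the mitochondrial sites in the GTPBP8 lists.

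Several pseudogenes were neighbours on a chromosome. MTCYBP18, MTND5P11, MTND4P12 and MTND4LP30 lay within 4781 nt on chromosome 5 (chr5:134923542-134928322), all on the minus strand and in the order of their parents on mtDNA. MTCO1P12 and MTATP6P1 lay on the plus strand of a stretch on chromosome 1 (chr1:629080-634055) in which sites listed for RP5-857K21.4 also fell inside MTND1P23 and MTND2P28. In all, 10 of the 19 genes lay in 6 stretches with a site in more than 1 copy gene. Of the 4 genes within 4781 nt on chromosome 5, MTCYBP18 (6 reads) was in replicate 1, MTND4P12 (516) and MTND5P11 (9) in replicate 2 and MTND4LP30 (17) in replicate 3.

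The conversion share is the percentage of a site's reads that the lists count as T-to-C converted. It was higher at the named humanin-like copies than at RNR2 in 3 of 3 replicates. It was 79.7%, 89.1% and 80.9% at the copies and 64.1%, 54.0% and 65.5% at the RNR2 sites of replicates 1, 2 and 3. The groups did not overlap, and the difference was 22.0 ± 11.3 percentage points (SD, n = 3; exact two-sided sign-flip test, p = 0.25, the smallest that 3 libraries allow). MTRNR2L10 had 94.2%, 93.5% and 88.6%, MTRNR2L3 87.8%, 86.6% and 84.8%, and the first MTRNR2L1 site 82.6%, 87.0% and 85.5%. Their SD between replicates was 1.46 to 3.05 points, smaller than their distance from RNR2 in every replicate. MTRNR2L11 was lower, at 69.8% and 71.6%, as was the third MTRNR2L1 site at 64.9% (56.9 to 72.1). Replicate 2 listed neither, so the pooled shares of the replicates rest on different sites. MTRNR2L9, a humanin-like gene whose site carried no gene name, is not in these shares. It had 62.3%, 43.0% and 61.1% in replicates 1 to 3, below RNR2 in every replicate. The RNR2 site at 2944 to 3106, whose sequence the MTRNR2L10 main site and the third MTRNR2L1 site match, had 63.9%, 60.3% and 61.5%. Against it the MTRNR2L10 main site was 30.1 ± 3.08 points higher, whereas the third MTRNR2L1 site differed by 0.93 points in replicate 1, the only replicate that listed it. The other nuclear sites had a pooled share of 64.6% ± 1.25 and a median over sites of 89.0%, beside a median of 85.0% at the copy sites. Other nuclear sites had fewer reads, and those with at least 10 reads had a median of 69.4% (74.1%, 69.2% and 65.0%) and a pooled share of 62.9%.

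The mtDNA pseudogenes were not uniform. Their pooled share was 48.3%, 61.6% and 56.4% against 60.6%, 60.4% and 64.9% at their parents, a difference of -6.55 ± 6.97 points that was negative in 2 of 3 replicates (exact sign-flip test, p = 0.5). Parents are those of the pseudogenes listed in each replicate, so both sets changed between replicates. MTATP6P1, whose parent had no listed site, is among the pseudogenes of replicate 3. MTND5P12 had 89.0%, 85.9% and 86.4% against 55.9%, 57.6% and 65.1% at ND5, and was higher by 27.6 points on average. MTCO1P12 had 19.9%, 21.1% and 30.3% against 57.0%, 58.9% and 57.9% at COX1, a difference of -34.2 ± 5.68 points. For each of these genes the copy and its parent did not overlap, with p = 0.25 by the exact sign-flip test. Such differences were computed for all copies, both groups and the 5 recurrent genes, and since the exact test cannot go below p = 0.25 with 3 libraries, none passes 0.05 with or without adjustment. No GTPBP8 library listed a COX1 site opposite the main MTCO1P12 site, and MTND5P12 had no match, so these shares were not compared over the same stretch. An mtDNA read with only the T13C base converted would have no mismatch to the MTCO1P12 site. MTND4P12 and MTATP6P1 had 68.2% (64.1 to 72.1) and 55.5% (49.8 to 61.1) in their only library, and the 10 pseudogenes with 5 to 17 reads had 57.1% to 100%. Over sites rather than reads the sign of the pseudogene set turned: the median share of the pseudogene sites was 22.2 ± 8.47 points above that of the parents' sites. This median gives the sites with 5 to 17 reads the same weight as the others. Read number was not matched to the parents' sites. Without MTND4P12 and MTATP6P1, a choice made after seeing the data, the pooled difference was -11.6 ± 3.82 points and negative in 3 of 3 replicates.

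**Figure D3:**
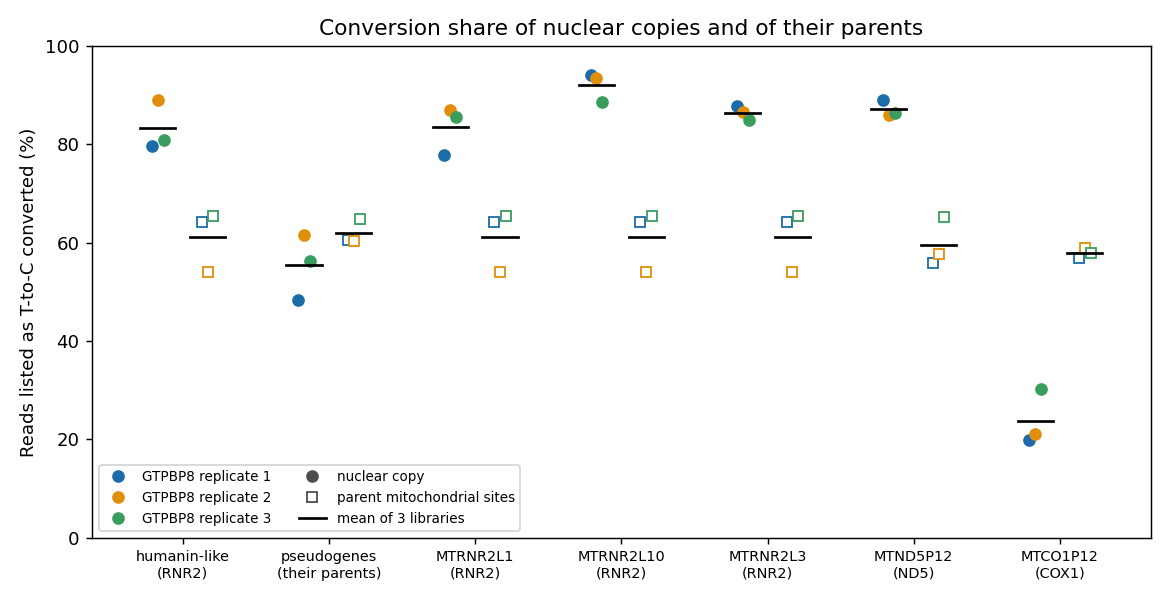
Reads listed as T-to-C converted in percent (y axis) at nuclear copies (filled circles) and at the mitochondrial sites of their parent transcript (open squares, parent in brackets), 1 point per GTPBP8 replicate with the mean of 3 as a bar. MTRNR2L10, MTRNR2L3 and MTND5P12 lie above their parents in every replicate, and MTCO1P12 (19.9% to 30.3%) lies below COX1 (57.0% to 58.9%). The COX1 sites lie outside the stretch that the main MTCO1P12 site matches, and MTND5P12 had no match.

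Sorting reads by their mismatches to the genome gave a sharper contrast. Reads without any mismatch were 26.4%, 36.0% and 24.8% at RNR2 in replicates 1, 2 and 3. At the named humanin-like copies they were 7.51%, 0.909% and 6.14%, below RNR2 in every replicate, though the listed sites differed between replicates. At the MTRNR2L9 site, which carried no gene name, they were 28.1%, 46.4% and 31.4%, above RNR2 in every replicate. At the first MTRNR2L1 site 5 of 184, 2 of 307 and 5 of 138 reads had none, at the MTRNR2L10 main site 1 of 252, 2 of 248 and 8 of 281, and at MTRNR2L3 and MTND5P12 no read in any replicate. The reads there carried exactly 1 mismatch, a T-to-C, in 85.0% ± 2.22, 91.7% ± 3.02, 84.9% ± 2.97 and 82.8% ± 4.28 of cases in that order, where MTRNR2L10 is given over both its sites. MTCO1P12 stood at the other end: 116 of 151, 102 of 133 and 71 of 97 reads at its main site had no mismatch (75.6% ± 2.06), and 1 T-to-C only was seen in 30, 28 and 22 reads. Its parent COX1 had 30.2% ± 1.36 of reads without a mismatch, ND5 29.4% ± 4.26, and the other nuclear sites 28.8% ± 1.32, pooled over reads. As a median over sites, the other nuclear sites had 6.97%, 0% and 3.00% in replicates 1 to 3. That is a mean of 3.32%, beside 1.61% at the copy sites. Other nuclear sites with at least 10 reads had a mean median of 24.6%. Low shares of mismatch-free reads were therefore not particular to the copies. Mismatch-free reads at MTCO1P12 carry the letters that mtDNA has after conversion of the T13C base. How far reads from mitochondrial transcripts make up these sites was not tested.

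**Figure D4:**
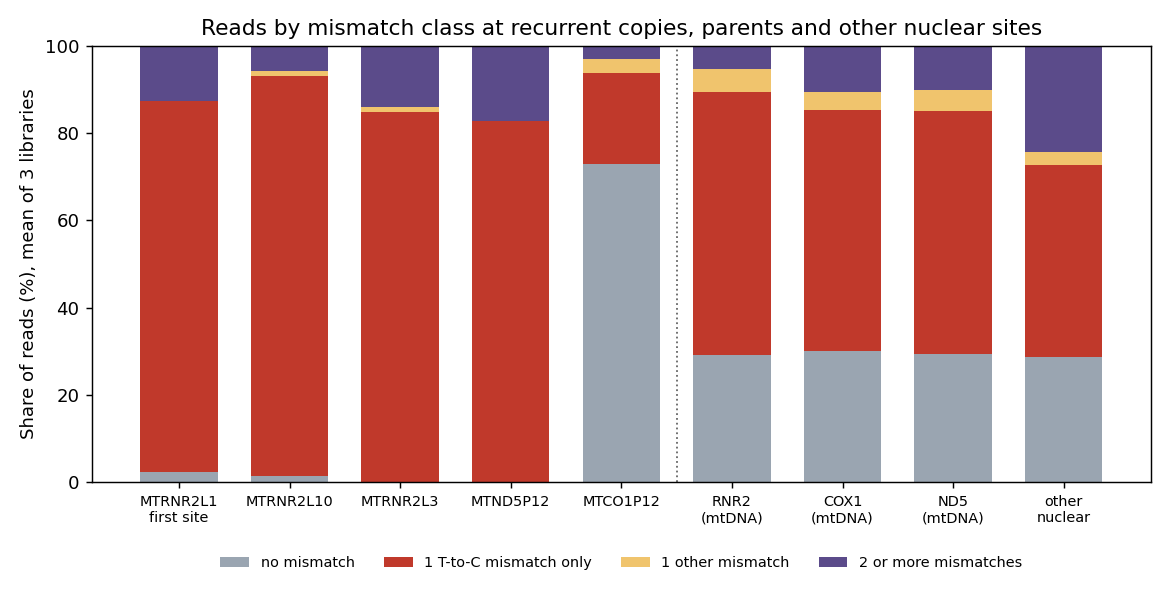
Mean share of reads over 3 GTPBP8 replicates (%) by mismatch class at the recurrent copies (left of the dotted line), at their parents on mtDNA and at other nuclear sites. Mismatch-free reads (grey) were 0% to 2.33% at the first MTRNR2L1 site, MTRNR2L10, MTRNR2L3 and MTND5P12, 72.9% at MTCO1P12 and 28.8% to 30.2% at the parents and other nuclear sites. Shares are pooled over reads, and the median over the other nuclear sites was 3.32%.

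The conversion share of the lists is not the share of reads with any conversion. It contains every read whose only mismatch is a T-to-C, but of 497 reads with 2 or more mismatches at the member sites it contains 99 (19.9%). At MTND5P12 in replicate 1, for example, 0 of 73 reads lacked a mismatch and 80 conversion events were listed, yet 65 reads counted as converted.

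Reads at the parent's mitochondrial sites outnumbered reads at the copies in every replicate. The parents of all named copies had 241, 405 and 251 reads per copy read in replicates 1 to 3 (299 ± 91.7; exact sign-flip test of the log ratio, p = 0.25). RNR2 had 281, 827 and 407 reads per read of the humanin-like copies (505 ± 286), and the pseudogenes' parents 64.0, 21.4 and 18.3 reads per pseudogene read (34.6 ± 25.5). Parents were counted only for copies listed in the same replicate, so the pseudogenes' parents had 10, 6 and 4 sites in replicates 1 to 3. These ratios therefore pool unlike sets of genes. COX1 had 7.09, 14.2 and 11.4 reads per read of MTCO1P12, and ND5 36.7, 49.6 and 14.4 per read of MTND5P12. COX1 thus exceeded its copy least among the 5 recurrent genes. Per nucleotide of site, however, the ratios of MTCO1P12 (2.97 ± 2.54) and MTND5P12 (3.97 ± 1.16) lay within each other's spread. The MTCO1P12 ratio includes the length of its weak second site in replicate 3. The RNR2 reads per read of MTRNR2L10 were 1274, 2202 and 1108, and 360 ± 47.7 where only the RNR2 site that matches its main site was counted. Without MTND4P12 and MTATP6P1 the ratio of the pseudogenes was 60.1 ± 16.1. No ATP8 or ATP6 site on mtDNA was listed in a GTPBP8 library, so MTATP6P1 had no parent reads to be compared with, although its site had 290 reads. Those reads stayed in the pseudogene total of replicate 3. At the stretch of COX1 that matches MTCO1P12 (mtDNA 6629 to 6651) no GTPBP8 library listed a mitochondrial site, so the COX1 reads above came from other parts of the transcript.

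The AUH list named no copy. By RefSeq position 1 of its 674 nuclear sites lay in a copy: a site without a gene name inside MTCO1P12 (chr1:631798-631832) with 11 reads, 1136 CPM (95% Wilson interval 634 to 2033) and 0.141% of nuclear site reads (0.0788 to 0.253). It overlapped the MTCO1P12 site of the GTPBP8 lists and had the same difference to mtDNA, T14C in the numbering of this longer site. Of its reads 45.5% (21.3 to 72.0) were converted. The AUH list also held the mitochondrial site opposite (mtDNA 6622 to 6669), with 16 reads of which 93.8% (71.7 to 98.9) were converted. COX1 had 13.5 reads per MTCO1P12 read in AUH, within the range of 7.09 to 14.2 in the GTPBP8 libraries. Sites in the AUH list had at least 4 reads, which is 413 CPM or 0.0513% of nuclear site reads. Of the 34 copy sites in the GTPBP8 lists, 9 lay above that level in CPM and 23 as a share of nuclear site reads. MTND5P12 (0.196% to 0.283% of nuclear site reads) and MTRNR2L3 (0.106% to 0.205%) lay above it on the nuclear scale in every replicate and under it in CPM. Whether a copy site at the GTPBP8 level could have been listed in AUH therefore depended on the scale. The main sites of MTRNR2L1 (457, 489 and 342 CPM) and MTRNR2L10 (626, 395 and 697 CPM) each exceeded it in 2 of 3 replicates in CPM, and both MTRNR2L11 sites did. With 3 libraries against 1 the exact permutation test cannot go below p = 0.25, which is the value for the total CPM of the copies against AUH.

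For a test across genes, reads were summed per gene, genes lacking a site in any of the 4 lists were left out, and the sums were fitted with edgeR's quasi-likelihood test. By name, 21 genes qualified and no copy was among them. Of these, 15 differed between GTPBP8 and AUH at an adjusted p below 0.05 (71.4%), 13 of them lower in GTPBP8 (61.9%). With TMM factors 7 of the 21 were called, 2 of them lower in GTPBP8. With the AUH site counted for MTCO1P12 by position, a choice made after seeing the data, 22 genes were fitted and 15 (68.2%) were called, 13 of them lower in GTPBP8 (59.1%). MTCO1P12 had 375, 212 and 270 CPM in GTPBP8 replicates 1 to 3 against 1136 CPM in AUH, a log2 difference of -1.99 with an adjusted p of 0.073 (edgeR), so it was not called. The median log2 difference of the 22 genes was -2.48, so relative to that median MTCO1P12 was not lower. With TMM factors the difference was 0.46 (adjusted p = 0.66) and with DESeq2 0.47 (adjusted p = 0.65), so its direction depended on the scaling. The fit takes the spread of the lone AUH library to equal that among the GTPBP8 replicates.

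Further nuclear sites matched mtDNA with at most 2 mismatches under another gene name or none. In the GTPBP8 lists they held 100, 159 and 235 reads in replicates 1 to 3. By listed gene those described here fell in introns of TACR1 (10 reads) and ERBB4 (23), in KIAA0825 (11, opposite to MTND5P12), in RP11-176N18.2 (8), in RP5-857K21.4 (5, inside MTND1P23) and in RP11-461G12.2 (74 and 67 reads in replicates 2 and 3, inside MTCYBP35). The TACR1 and ERBB4 sites matched RNR2 from mtDNA 3033 on, the position at which the MTRNR2L10 site begins. The remaining such sites had no gene name. Of these the one beside MTRNR2L12 (chr3:96618357-96618389, 56 and 87 reads in replicates 1 and 3) matched the mtDNA from position 1517 on with 1 mismatch, and the others had 6 to 41 reads. With these sites counted, the copies had 3338 ± 758 CPM in place of 2977 ± 692, a change within the spread between replicates. Chosen after its values were seen, a site without a gene name on chromosome 11 (chr11:103408571-103408628), with 3 mismatches to RNR2 over 58 nt, had 434, 753 and 575 reads and 95.4%, 92.6% and 94.3% converted.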

How the data were processed

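GTPBP8::FLAG (3 libraries) and AUH::V5 (1 library) fPAR-CLIP site lists on hg38 were analysed. In the GTPBP8 lists the authors give whole-number counts per site of reads, distinct read sequences, conversion events and reads by mismatch class, and a fraction of reads with a T-to-C conversion. Per the study's methods, reads were demultiplexed with bcl2fastq, trimmed with Cutadapt and called with PARpipe and PARalyzer. The deposited AUH list holds estimated counts (converted reads, total reads, conversion positions) and a fraction. The sources used here name no caller for it, and its reads were computed from converted reads and the fraction, rounded to whole numbers. They also name no rule for reads that fit mtDNA and a nuclear copy alike, which decides where such reads count.

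CPM is reads per 1000000 site reads of a library. Parents were taken from the gene name and, on mtDNA, from RefSeq positions and strand, with ND4L/ND4 and ATP8/ATP6 merged. Sequences came from the lists. Gene spans came from RefSeq (GRCh38.p14). Exact sign-flip and permutation tests used Python 3.11.15. Genes with a site in every library were fitted with edgeR 4.0.16 (quasi-likelihood, total site reads as library size, Benjamini-Hochberg), with DESeq2 1.42.0 as an alternative. The fit and the sequence match were tested on simulated data. For the fit, the simulated libraries had equal depth and many more genes than were fitted here. That test therefore does not cover the low depth of AUH or the small number of genes. Depth was 402701 to 627603 reads in GTPBP8 libraries and 9684 in AUH, so values of AUH sites are the least precise. Alternatives were distinct reads, filters of 10 reads or 2 conversion positions, other denominators, mismatch limits and overlaps, and leaving out each replicate. Chosen after seeing the data were 4 more: the AUH site counted for MTCO1P12 by position, groups and recurrent genes taken apart, unnamed sites inside RefSeq copies added, and MTND4P12 with MTATP6P1 left out.

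Named were all copies with a site, unnamed nuclear sites with at most 2 mismatches to mtDNA, and the 3 nuclear genes closest in CPM to the copy gene with the highest mean. The members and lists were chosen with earlier results of these data known. Where the labels say biological replicate, nothing further is said of separate cultures, so p-values measure the spread between these libraries. Sites listed under 1 further gene name are not reported here, although totals over unnamed sites include them.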

Additional observations from a re-analysis of the deposited data

Results flagged for a closer look

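Signal at nuclear copies also stood in sites that the name rule leaves out. In the GTPBP8 lists, unnamed sites or sites named for another gene inside RefSeq copies had a mean of 1230 ± 215 CPM (SD, n = 3), beside 2977 ± 692 CPM at the named copies. Most of it lay in MTRNR2L9, a humanin-like gene on chromosome 6 (chr6:61574477-61574544), whose site had no gene name in the lists. It had 409, 521 and 411 reads in replicates 1, 2 and 3, in sum 1341, with 62.3%, 43.0% and 61.1% converted. MTCYBP35, listed as RP11-461G12.2, had 74 and 67 reads in replicates 2 and 3 (141 in all) with 20.3% and 34.3% converted. MTND6P3, listed in KIAA0825, had 27 and 19 reads (46 in all). MTND6P35, without a gene name, had 12 and 5 reads at separate sites (17 in all). In the AUH list the unnamed site inside MTCO1P12 had 1136 CPM from 11 reads.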

How the results depend on the processing

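The CPM of the named copies (2977) was 6440 from distinct read sequences, 45720 per 1000000 nuclear site reads and 4207 with unnamed sites inside RefSeq copies, the last chosen after seeing the data. It ranged from 2687 to 3360 with 1 replicate left out. The conversion share of the copies (73.2%) was 10.1% as conversion events over all events at T and 85.0% as a median over sites, and 72.5% to 74.3% with 1 replicate left out. The difference from the parents kept its sign in 61 of 62 alternatives, taking all copies, both groups and the 5 recurrent genes. The exception was the pseudogenes' median over sites (22.2 points in place of -6.55). With 1 replicate left out, the difference was 7.78 to 15.3 points for all copies, 15.5 to 25.3 for humanin-like genes and -10.4 to -3.66 for pseudogenes. All 62 alternatives of parent reads per copy read were above 1. In both tallies the sets share sites, and the filter of 2 conversion positions changed no value. Leaving out 1 replicate cannot turn a direction that all 3 replicates share. Many of these alternatives could therefore not differ, and the tallies do not measure stability. The ratio over all copies (299) was 132 from distinct reads and 104 per nucleotide of site. That of the humanin-like copies (505) was 218 and 291, and 311 where copies and RNR2 match in sequence. That of the pseudogenes (34.6) was 19.1 with at least 10 reads, 8.32 per nucleotide, 19.9 without replicate 1, 60.1 without MTND4P12 and MTATP6P1, and 403 in the 1 library where copies and parents match in sequence. Overlap between replicates (49.1%) was 67.1% with at least 10 reads. Sites matching mtDNA (9) were 0 with no mismatch allowed and 8 with at most 2. Genes called between GTPBP8 and AUH (15 of 21) were 7 with TMM factors, 7 with DESeq2, 4 of 10 with at least 10 reads in each library, and 9 to 12 with 1 replicate left out. Among the 21, 13 of 15 were lower in GTPBP8 in the main fit and 2 of 7 with TMM factors. The log2 difference of MTCO1P12 (-1.99) was 0.46 with TMM factors, 0.47 with DESeq2 and -2.24 to -1.81 with 1 replicate left out. The total-read column deposited for AUH disagreed with the reads computed from its fraction. With it, MTCO1P12 had 702 CPM in AUH in place of 1136, a log2 difference of -1.30, and 18 of 21 genes were called. The cause was not tested. No paired analysis was possible because AUH has 1 library whose label gives no replicate number. With 3 libraries no exact test can pass 0.05, so p-values say nothing about stability, and no site under 4 reads is in the AUH list.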
